A study of Mus musculus with 6 samples.

Results

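The MiT/TFE transcription factors, folliculin with its partner proteins, and the Rag GTPases were examined in starved and control cells of a mouse line called PPP3R1. The set was defined by name as 10 genes, Tfeb, Tfe3, Mitf, Tfec, Flcn, Fnip1, Fnip2, Rraga, Rragc and Rragd, and its members are the probe sets that the platform annotation gives to them. It gave 10 probe sets to 7 of these genes, out of 22626 probe sets tested. Flcn had 3 probe sets and Mitf 2, whereas Tfeb, Tfec, Rraga, Rragc and Rragd had 1 each. The annotation used here gave 0 probe sets to Tfe3, Fnip1 and Fnip2, alone or together with other genes, so the expression of these 3 genes was not analysed here.

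The MiT/TFE proteins are basic helix-loop-helix leucine zipper factors that bind E-box-like elements in front of genes of the lysosome and of autophagy. The Rag GTPases form a heterodimer of RagA or RagB with RagC or RagD on the lysosomal surface, where the Ragulator complex anchors it, and in the presence of amino acids this dimer recruits the growth kinase mTORC1 and also TFEB. Folliculin, bound to a folliculin-interacting protein (Fnip1 or Fnip2), activates GTP hydrolysis by RagC and RagD and so permits mTORC1 to phosphorylate TFEB, which keeps TFEB in the cytoplasm. During starvation TFEB is dephosphorylated, among others by the calcium-dependent phosphatase calcineurin, and enters the nucleus. Much of this control acts on the proteins and their location, which expression arrays do not measure.

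Starved cells (3 arrays) had been deprived of nutrients for 6 h, in a medium that the labels do not describe further. Control cells (3 arrays) of the same line were kept in normal medium. PPP3R1 is also the name of the regulatory subunit of calcineurin, but the labels do not say how the line was altered, or whether it is a single clone. The titles and the design statement describe the control as PPP3R1 cells, whereas the protocols describe it as wild-type mouse embryonic fibroblasts; the titles were followed here, and with the other reading starvation and cell line could not be told apart.

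Levels below are log2 values from the authors' RMA processing, and changes are starved minus control, with the standard error (SE) from limma and n = 3 arrays per group. A probe set was called where its limma p was under 0.05 after Benjamini-Hochberg adjustment across the 22626 probe sets. The titles speak of biological replicates without saying whether cultures were separate, so p-values measure only the spread between these arrays. Array medians lay between 6.74 and 6.78, and correlations across probe sets were 0.998 within groups and 0.986 to 0.988 between groups. Of 10 fibroblast markers 4 were called higher and 3 lower. Among all genes, each by its brightest probe set, 20.8% were called higher and 20.1% lower. Of the markers, Col1a1 (0.57 ± 0.06) and Pdgfrb (-0.81 ± 0.07) changed most. The abundant markers Col1a2 and Vim were at 14.16 and 14.06 in starved cells and at 14.02 and 13.80 in control cells. Thy1, however, was near background at 4.87 in starved and 4.80 in control cells. Ppp3r1 itself was at 10.09, 10.07 and 10.08 in starved and at 9.97, 10.02 and 9.99 in control cells, a difference of 0.09 ± 0.05 (SE) that was not called (limma adjusted p = 0.215). As a measure of RNA integrity, the signal at the 3 prime end of Gapdh minus that at its 5 prime end was -0.12, -0.15 and -0.11 on starved and -0.0004, -0.11 and -0.04 on control arrays, so that the groups were just apart; for Actb the groups overlapped. Its part in the results was not tested.

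The called members with their promoters are shown first, because MiT/TFE factors are known to act back on several of these genes. Each sequence holds the 250 bases before the annotated gene start, from RefSeq, build GRCm38.p6, read 5′ to 3′ along the gene. Capitals mark the E-box CACGTG and the longer TCACGTG, which contains it, on either strand.
Flcn, chr11:59810040-59810289, minus strand: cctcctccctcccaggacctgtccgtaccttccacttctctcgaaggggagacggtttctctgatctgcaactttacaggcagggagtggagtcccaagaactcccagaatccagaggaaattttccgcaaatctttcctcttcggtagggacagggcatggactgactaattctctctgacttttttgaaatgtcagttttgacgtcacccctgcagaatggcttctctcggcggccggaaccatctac
Rraga, chr4:86575423-86575672, plus strand: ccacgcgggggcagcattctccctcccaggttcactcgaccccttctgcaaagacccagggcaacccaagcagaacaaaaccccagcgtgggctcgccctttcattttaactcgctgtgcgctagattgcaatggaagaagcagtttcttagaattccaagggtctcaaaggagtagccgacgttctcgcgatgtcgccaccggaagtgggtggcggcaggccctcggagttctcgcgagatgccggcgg
Rragc, chr4:123917183-123917432, plus strand: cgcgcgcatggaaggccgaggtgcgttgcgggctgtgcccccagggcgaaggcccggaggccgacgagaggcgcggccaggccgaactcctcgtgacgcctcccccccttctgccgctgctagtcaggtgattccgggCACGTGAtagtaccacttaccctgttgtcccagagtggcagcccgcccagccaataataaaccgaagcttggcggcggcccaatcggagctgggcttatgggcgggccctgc

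Of these 3 promoters, the one of Rragc held an E-box. It began 112 bases before the gene start and was followed by A, so that the opposite strand reads TCACGTG, the form bound by MiT/TFE factors. The same form stood 75 bases before the start of Fnip1. Neither form was present in the windows of Flcn, Rraga, Rragd, Tfec, Fnip2 or any of the alternative starts listed for Tfeb, Tfe3 and Mitf. The related sequence TCATGTG, searched on both strands, was in none of the members' windows. Among all 32851 promoter windows of the same length, 6.02% held CACGTG, 3.13% held TCACGTG and 3.25% held TCATGTG. A match describes these letters and is not evidence of binding.

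Among the members, the transcripts of folliculin and of the Rag subunits RagA and RagC fell in starved cells, while none of the probe sets for the transcription factors was called. 4 of the 10 member probe sets were called lower (19.2% of all probe sets were) and 0 were called higher (20.3% of all). At an unadjusted limma p under 0.05, 5 passed, all of them lower and none for a transcription factor. Counted over genes by their brightest probe set, 3 of 7 were called lower, against 20.1% of all 12393 genes, and 0 higher, against 20.8%. The median change was -0.24 over the 10 member probe sets and -0.01 over all probe sets. Every starved array lay below every control array in 5 member probe sets, a pattern seen in 25.0% of all probe sets.

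**Figure D1:**
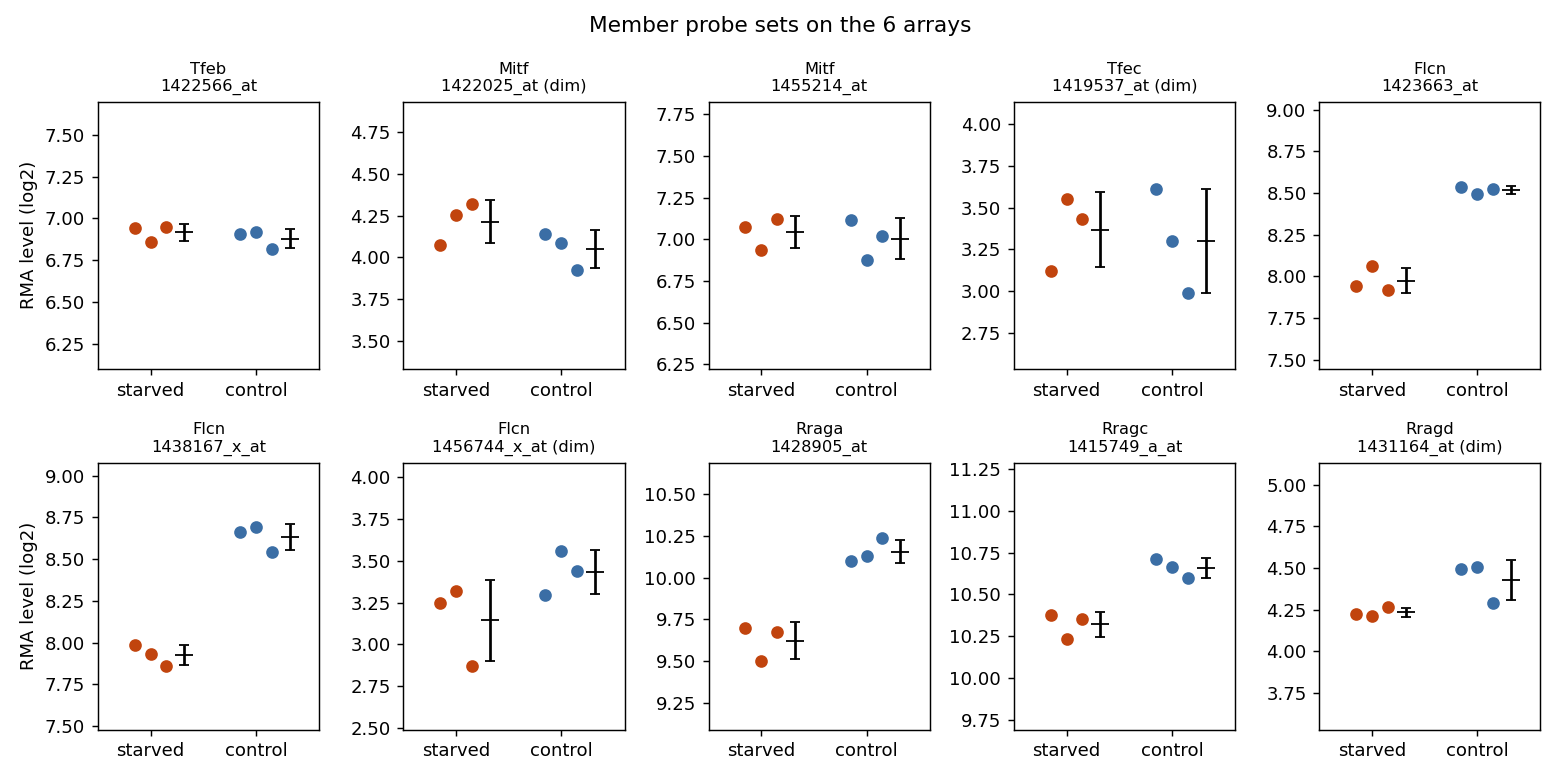
RMA levels (log2, vertical axes, each spanning the same range) of the 10 member probe sets on the 3 starved arrays (orange, left) and the 3 control arrays (blue, right), with the mean and SD beside them; dim marks a mean level under 5. The groups are apart for Flcn 1423663_at and 1438167_x_at, Rraga and Rragc, just apart for Rragd, and overlap for Tfeb, Mitf, Tfec and the dim Flcn probe set.

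Flcn encodes folliculin, the tumour suppressor mutated in Birt-Hogg-Dubé syndrome, and lies on chromosome 11 (59791408 to 59810039, GRCm38.p6). Its brightest probe set, 1438167_x_at, read 7.98, 7.93 and 7.86 on starved arrays and 8.66, 8.69 and 8.54 on control arrays. The nearest arrays of the groups were 0.56 apart. The change was -0.71 ± 0.06 (SE), so that the control level was 1.63 times the starved level (limma adjusted p = 9.83e-05), and 3.37% of all probe sets fell as far or farther.

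The second Flcn probe set, 1423663_at, read 7.95, 8.06 and 7.92 on starved arrays and 8.53, 8.49 and 8.53 on control arrays. Again no starved array reached the control range. It fell by 0.54 ± 0.06 (SE; limma adjusted p = 0.000245), and its 95% interval of -0.68 to -0.40 overlapped that of the brightest probe set, -0.86 to -0.56. The ending x_at marks probe sets that may pick up other transcripts, while 1423663_at has no such mark.

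The third Flcn probe set, 1456744_x_at, was close to background, with 3.25, 3.32 and 2.87 on starved arrays and 3.30, 3.56 and 3.44 on control arrays. These groups overlapped. Its change of -0.29 ± 0.12 (SE) was not called (limma adjusted p = 0.109), and at this level it says little about folliculin. With the 3 probe sets averaged, Flcn fell by 0.51.

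Rraga, which encodes RagA, lies on chromosome 4 (86575673 to 86577285). It read 9.70, 9.50 and 9.67 on starved arrays and 10.10, 10.13 and 10.24 on control arrays. Starved replicate 2 was the lowest, and the groups were 0.40 apart at their nearest. Rraga fell by 0.53 ± 0.07 (SE; limma adjusted p = 0.000755), which puts the control level at 1.45 times the starved level. Rragb, the gene of the paralogue RagB, has no probe set named in the annotation used here, so the sum of both partners is unknown.

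Rragc, for RagC, lies on the same chromosome (123917433 to 123936997). Its values were 10.38, 10.24 and 10.35 in starved cells and 10.71, 10.66 and 10.60 in control cells. The groups did not overlap, with 0.22 between their nearest arrays. Rragc fell by 0.34 ± 0.06 (SE; limma adjusted p = 0.00371), and the control level was 1.26 times the starved level. This is the member whose printed promoter carries the E-box.

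Rragd, for RagD, is known to be induced by MiT/TFE factors when nutrients are short. It lies on chromosome 4 (32982998 to 33022180) and was dim, at 4.23, 4.21 and 4.27 on starved arrays and 4.49, 4.51 and 4.29 on control arrays. Control replicate 3 stood within 0.02 of the highest starved array, so the separation rests on a narrow gap. The change of -0.19 ± 0.07 (SE) was not called (limma adjusted p = 0.0643, and 0.0120 to 0.183 across all alternatives). The call was gained when control replicate 3 was left out (-0.26, limma adjusted p = 0.0120), and also when arrays were weighted by quality (-0.21, limma adjusted p = 0.0370).

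The 3 Rag probe sets thus all had lower means in starved cells. On each array the level of one was subtracted from that of another, and starved and control arrays were compared by a two-sided exact permutation test, with 20 arrangements and a smallest possible p of 0.1. The difference Rraga minus Rragc was -0.68, -0.74 and -0.68 on starved and -0.61, -0.53 and -0.36 on control arrays, a shift of -0.20 (exact p = 0.1, adjusted p = 0.15 over 3 pairs). This pair was added after the data were seen, since 3 of 5 planned pairs lacked a probe set. Rragc minus Rragd was 6.15, 6.02 and 6.09 on starved and 6.22, 6.16 and 6.31 on control arrays, a shift of -0.14 (exact p = 0.1, adjusted p = 0.15). The size of such differences is not a ratio of transcripts, since the probe sets differ in sensitivity, and with 3 arrays per group neither shift could reach 0.05.

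Tfeb, the member of the factor family best known for driving lysosomal genes, lies on chromosome 17 (47737037 to 47792416). Its level was 6.94, 6.86 and 6.95 in starved cells and 6.91, 6.92 and 6.82 in control cells. The groups overlapped. The difference was 0.04 ± 0.06 (SE; limma adjusted p = 0.669), with a 95% interval of -0.10 to 0.17.

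Mitf, the melanocyte and osteoclast factor, spans 97807002 to 98021360 on chromosome 6. Its brighter probe set, 1455214_at, read 7.07, 6.94 and 7.12 on starved arrays and 7.12, 6.87 and 7.02 on control arrays, a difference of 0.04 ± 0.08 (SE; limma adjusted p = 0.745, 95% interval -0.15 to 0.23). The sign turned without control replicate 2 (-0.02). The dim probe set, 1422025_at, read 4.07, 4.25 and 4.32 on starved arrays and 4.14, 4.09 and 3.92 on control arrays. It differed by 0.17 ± 0.09 (SE) without being called (limma adjusted p = 0.175), and the annotation does not say which of the gene's alternative transcripts either probe set reads.

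Tfec, a factor of macrophages and osteoclasts, lies on the same chromosome (16830927 to 16898464). Its probe set was dim, with 3.12, 3.55 and 3.43 on starved and 3.61, 3.30 and 2.99 on control arrays. The starved range lay inside the control range. The difference of 0.07 ± 0.17 (SE; limma adjusted p = 0.790) had a 95% interval of -0.32 to 0.45, and its sign turned without control replicate 3 (-0.09) or starved replicate 2 (-0.02).

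In the cell types where Mitf and Tfec are known to act, other marker genes give the setting. Of 5 measured melanocyte markers 0 were called, and the group means of Tyr, Tyrp1 and Dct lay between 3.49 and 4.05. The other melanocyte markers lay above the limit of 5 used here for dim probe sets, Pmel at 5.76 in starved and 5.93 in control cells and Sox10 at 6.16 in starved and 6.20 in control cells. Of 8 macrophage and leukocyte markers, Cd68 and Lyz2 were called higher and Fcer1g lower (20.8% and 20.1% of all genes). The defining markers Ptprc and Adgre1 were at 3.03 and 3.25 in starved and 3.07 and 3.37 in control cells. Csf1r, Cd68 and Lyz2 lay above the limit of 5 in both groups. They were at 6.17, 6.68 and 6.31 in starved and at 6.18, 6.25 and 6.07 in control cells. Fcer1g was at 4.99 in starved and 5.27 in control cells, with its mean over the arrays above the limit. The mean level was under 5 for 4 of the 8 markers. Summed over the 8 genes, the log2 values came to 37.51 to 37.84 on starved and 36.51 to 38.14 on control arrays. Such a sum of log2 values is not a total amount of transcript. Of 4 osteoclast markers, Acp5 and Ctsk, which are also lysosomal enzymes, were called lower. Acp5 was dim, at 3.91 in starved and 4.54 in control cells, and Ctsk was at 5.23 and 5.75. The mean level was under 5 for 3 of the 4 markers. Their log2 values summed to 16.90 to 17.20 on starved and 17.92 to 18.65 on control arrays. Of 6 epithelial markers only Cdh1 was called, higher at 4.04 in starved against 3.55 in control cells, both under the limit of 5.

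Tfeb minus Mitf, taken within each array, was -0.13, -0.08 and -0.17 on starved and -0.21, 0.04 and -0.20 on control arrays, a shift of -0.0028 (exact permutation p = 1, adjusted p = 1). Fewer cells with a transcript and less of it per cell cannot be told apart in any of these bulk measurements.

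**Figure D2:**
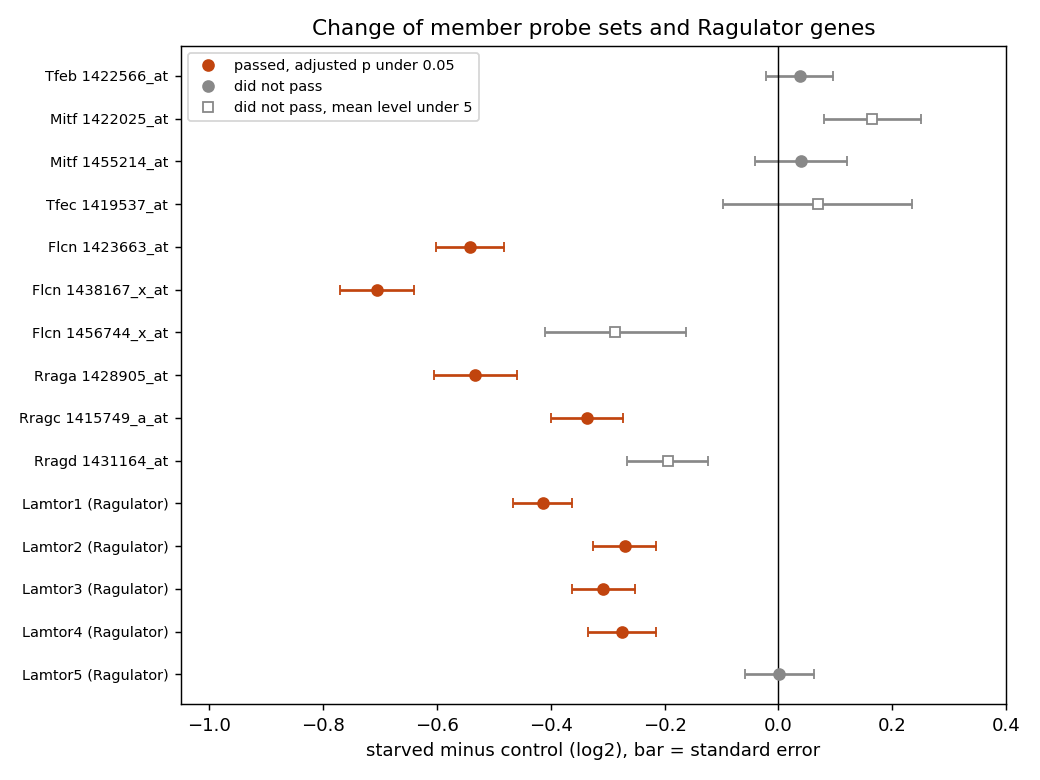
Starved minus control difference (log2, horizontal axis, bars are SE from limma) of the 10 member probe sets and of the 5 Ragulator genes; orange points were called, grey points were not, and open squares have a mean level under 5. The called members lie between -0.71 and -0.34, the Tfeb and brighter Mitf points lie at 0.04, and 4 of the 5 Ragulator points lie between -0.41 and -0.27.

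Around the members, 7 lists of genes were read in the same fit, each gene by its brightest probe set, and 93 of 117 listed genes were measured. Of these, 14 were called higher and 46 lower, where 20.8% of all genes were called higher and 20.1% lower. These shares also cover dim genes, whereas the listed genes were mostly bright. The median levels of the 7 lists were 7.81 to 10.35, against array medians of 6.74 to 6.78 over probe sets. Shares among genes of like level were not computed. The median change of all genes was -0.01. Differences between the lists were not tested.

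Ragulator, the pentamer that holds the Rag dimer on the lysosome, moved with the Rag genes. Of its 5 subunit genes 4 were called lower and 0 higher (20.1% and 20.8% of all genes), with a median of -0.28. Lamtor1, the subunit that carries the membrane anchor, read 11.05, 11.06 and 11.03 on starved and 11.50, 11.44 and 11.45 on control arrays. It fell by 0.41 ± 0.05 (SE; limma adjusted p = 0.000476), and its other probe sets fell by 0.43 ± 0.05 and 0.40 ± 0.06. Lamtor3 read 8.78, 8.79 and 8.82 on starved and 9.15, 9.11 and 9.05 on control arrays and fell by 0.31 ± 0.05. No starved array overlapped the control range in either gene.

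Lamtor4 fell by 0.28 ± 0.06 and Lamtor2 by 0.27 ± 0.06, although the dimmer probe set of Lamtor2 differed by 0.02 ± 0.08 without being called. Lamtor5 was not called in its brightest probe set (0.0016 ± 0.06), at 11.04, 10.98 and 11.01 on starved and 10.98, 10.95 and 11.10 on control arrays, and its other probe set differed by -0.19 ± 0.10 without being called (limma adjusted p = 0.169).

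GATOR1 switches off RagA, GATOR2 opposes GATOR1, and KICSTOR places GATOR1 on the lysosome. Of 7 measured genes of these complexes 2 were called higher and 2 lower (20.8% and 20.1% of all genes), with a median of -0.08. Itfg2 of KICSTOR rose by 0.78 ± 0.06 (limma adjusted p = 4.9e-05). The GATOR1 gene Nprl2 fell by 0.40 ± 0.07 and the GATOR2 gene Seh1l, which also serves the nuclear pore, fell by 0.49 ± 0.08 with its 5 other probe sets lower by 0.33 to 0.59. Nprl3, the direct partner of Nprl2, was called in the opposite direction (0.22 ± 0.06; limma adjusted p = 0.0259) and is named here because of its value; it lost the call when starved replicate 1, starved replicate 3 or control replicate 1 was left out, with the replicate block and without moderation of the spread (limma adjusted p from 0.0514 to 0.0822, and 0.00904 to 0.0822 across all alternatives), which left 1 gene of these complexes called higher. Sec13 differed by -0.08 ± 0.06 without being called.

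Of 8 measured genes for amino acid sensors and other Rag regulators, 2 were called higher and 3 lower (20.8% and 20.1% of all genes). Their median was -0.07. The leucyl-tRNA synthetase gene Lars, whose product also senses leucine for the Rag GTPases, rose by 0.64 ± 0.06 (limma adjusted p = 0.000127). The arginine sensor paralogue gene Castor2 fell by 0.50 ± 0.09 and Sh3bp4, whose product binds the Rag dimer and restrains it, by 0.41 ± 0.06. The sestrin gene Sesn3 differed by -0.03 ± 0.06 without being called. The other gene called higher was Sesn2 (0.22 ± 0.06, limma adjusted p = 0.0217), named here because of its value, and it was not called when starved replicate 1, starved replicate 3 or control replicate 2 was left out (limma adjusted p from 0.0544 to 0.0732, and 0.00898 to 0.0732 across all alternatives).

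Of 21 measured genes that act on TFEB or on its regulators, 4 were called higher and 5 lower (20.8% and 20.1% of all genes), with a median of 0.03. Mcoln1, the lysosomal calcium channel that feeds calcineurin and is itself a TFEB target, fell by 0.29 ± 0.06 (limma adjusted p = 0.00584), and its second probe set by 0.31 ± 0.06. Gsk3b, a kinase that phosphorylates TFEB, rose by 0.34 ± 0.06. The calcineurin subunit gene Ppp3cc was at 5.64 in starved and 4.97 in control cells, near the limit for dim probe sets, and its rise of 0.66 ± 0.19 (limma adjusted p = 0.0234) was not called on leaving out any array but control replicate 3 (limma adjusted p from 0.0507 to 0.0758, and 0.000433 to 0.129 across all alternatives). Its other probe set, with a mean level of 4.87, differed by 0.17 ± 0.10 without being called. Ywhaz, of the adaptor family that holds phosphorylated TFEB in the cytoplasm, differed by 0.03 ± 0.05 in its brightest probe set without being called; of its 6 other probe sets, 1416103_at fell by 0.50 ± 0.06 (limma adjusted p = 0.000345) and the others were not called. Among the 5 lower was the calcineurin subunit gene Ppp3cb (-0.21 ± 0.06), named here because its probe sets disagreed. Its other probe set, 1427468_at, was called higher (0.61 ± 0.07, limma adjusted p = 0.000356). The lower call of Ppp3cb was lost in 7 of 14 alternatives (limma adjusted p 0.00373 to 0.0983 across all). The count of 5 lower fell to 2 without starved replicate 2 and to 3 without control replicate 1 or control replicate 2.

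Of 7 measured E-box factors and repressors of lysosomal genes, 4 were called lower and 0 higher (20.1% and 20.8% of all genes). Their median was -0.22. Max, the common partner of the Myc family, fell by 0.84 ± 0.06 (limma adjusted p = 2.47e-05). Mlx fell by 0.31 ± 0.09, and Zkscan3, a repressor of autophagy and lysosomal genes, by 0.25 ± 0.08. The other probe set of Mlx, 1418437_a_at, fell by 0.26 ± 0.05 (limma adjusted p = 0.00616). That of Zkscan3, 1422551_at, fell by 0.25 ± 0.06 (limma adjusted p = 0.0122). Usf1 differed by 0.04 ± 0.08 without being called. Usf2 is named here because its probe sets disagreed. Its brightest differed by -0.05 ± 0.15 without being called, whereas 1460228_at was called higher (0.28 ± 0.08, limma adjusted p = 0.0208). Without starved replicate 2 or starved replicate 3 the count of 4 became 1: Mlx (limma adjusted p = 0.0556 and 0.0674, range over its alternatives 0.00332 to 0.0797) and Zkscan3 (0.0666 and 0.112, range 0.00358 to 0.112) were then among the calls lost.

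Reported MiT/TFE targets of lysosome and autophagy were mostly lower. Of 40 measured, 24 were called lower and 6 higher (20.1% and 20.8% of all genes) and 10 neither, with a median of -0.29. Gusb (beta-glucuronidase) fell by 1.27 ± 0.06 (limma adjusted p = 5.98e-06) and Ctsa (cathepsin A) by 0.89 ± 0.06. The autophagy receptor gene Sqstm1 ran the other way and rose by 0.96 ± 0.05 (limma adjusted p = 1.03e-05), and Gabarap differed by -0.16 ± 0.06 without being called. The 6 genes called higher were Sqstm1, Wipi1, Gabarapl1, Uvrag, Vps11 and Gla, of which the last 5 were chosen by their values; of the other probe sets of Wipi1, 1 was called higher and 2 lower. Vps11 and Gla were not called with the replicate block (limma adjusted p = 0.0746, and 0.0134 to 0.095 across all alternatives, for Vps11; 0.0579, and 0.00664 to 0.0753, for Gla), which left 4 genes called higher. The count was also 4 without starved replicate 3 or control replicate 3.

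The list was drawn from genes whose promoters are known for E-boxes. Of its 32 measured genes with a promoter window, 14 (43.8%) held CACGTG, against 6.86% of all 27025 genes with one. The motif was in 10 of 20 genes called lower, 1 of 5 called higher and 3 of 7 that were not called.

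Of 7 reported targets outside the lysosome, 5 were called lower and 1 higher (20.1% and 20.8% of all genes), with a median of -0.39. Ddit4, a stress-induced inhibitor of mTORC1, fell by 1.13 ± 0.08 (limma adjusted p = 2.97e-05), the coactivator gene Ppargc1a by 0.73 ± 0.06 and Hif1a by 0.59 ± 0.08. Atf4 differed by -0.05 ± 0.06 without being called. The gene called higher was Sesn2, described above with the arrays its call rests on.

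**Figure D3:**
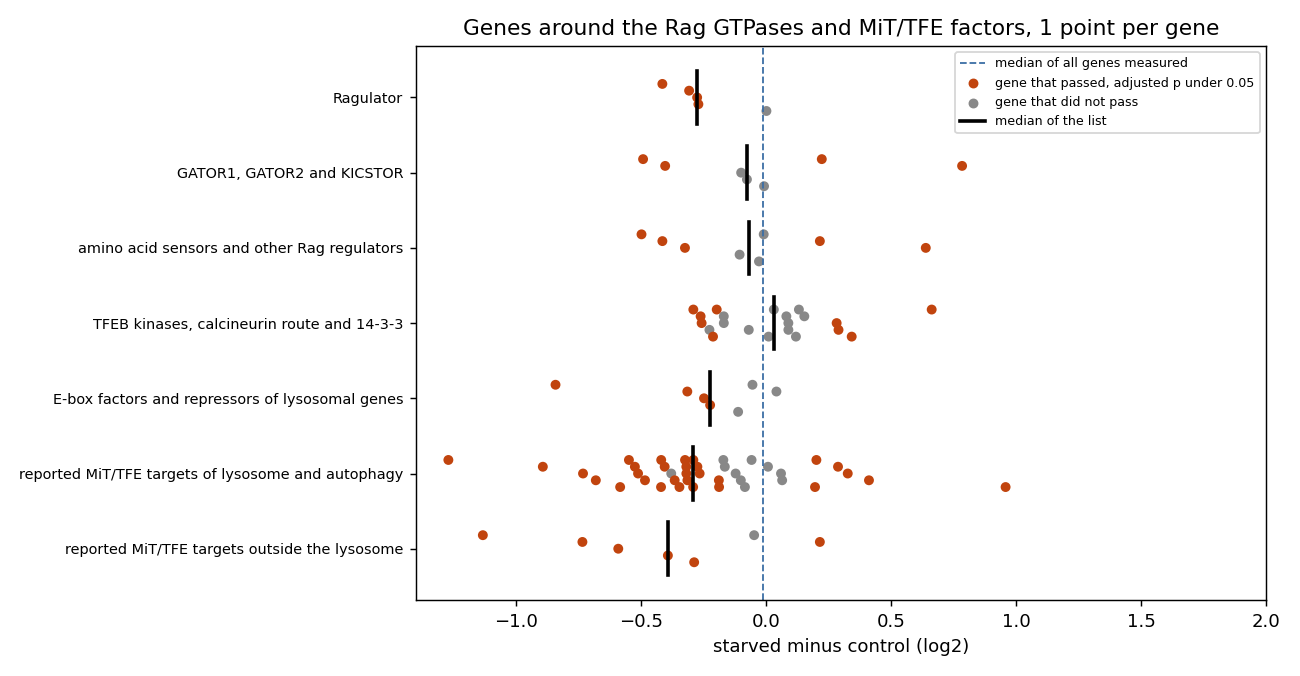
Starved minus control difference (log2, horizontal axis) of every measured gene of the 7 lists, 1 point per gene, with the median of each list as a black bar and that of all genes as a dashed line. Orange genes were called and grey ones were not. The medians of the target lists lie at -0.29 and -0.39 and that of the genes acting on TFEB or on its regulators at 0.03.

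Genes whose pattern was most like that of Flcn and of Rraga were sought among 12117 named genes, by the root mean square difference of log2 values over the 6 arrays after each gene was centred on its own mean. Closest to Flcn were Plat, the gene of tissue plasminogen activator (0.03, change -0.69), Tmem45a (0.03, change -0.74) and the growth factor gene Vegfb (0.04, change -0.69). Closest to Rraga were Ier5l (0.03, change -0.49), Fbxo33 (0.03, change -0.52) and Ap3m1, the gene of an adaptor subunit for transport to lysosomes (0.03, change -0.51). With 2 groups of 3 arrays this measure mainly finds genes with a fall of the same size.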

How the data were processed

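Biotin-labelled cRNA from 3 starved and 3 control samples was measured on 6 Affymetrix mouse arrays. The authors made the deposited log2 values with RMA (affy), as the submitters' processing notes state without a version. RMA equalises the distributions of the arrays, so a general rise or fall of transcripts would not show. The table held 22690 probe sets, of which 64 controls were left out. Gene names came from the platform annotation: 20380 tested probe sets named 1 gene, 691 named several and 1555 had none here. With no detection calls, a level of 5 (log2) served as the limit for dim probe sets. The number of arrays limits the precision.

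Groups followed the titles. The comparison used two-sided tests from limma 3.58.1 (lmFit, then eBayes, no covariate) under R 4.3.3, with Benjamini-Hochberg adjustment over 22626 probe sets. On simulated data with the spread of these 22626 probe sets, it recovered 95.2% of probe sets changed by 1 (log2), 46.8% of those changed by 0.5 and 4.29% of those changed by 0.25, with 3.7% false calls. Only 83, 47 and 70 simulated probe sets were changed by these amounts, whereas 8933 were called in the data. The adjustment was therefore stricter in the simulation, and these shares do not give the recovery in the real comparison. The labels do not say whether replicate numbers pair the cultures. Deviations from the group means correlated at -0.09, 0.02 and -0.01 for arrays of equal number 1, 2 and 3. For arrays of unequal number the correlations were -0.08 to 0.09. With 3 arrays per group these values cannot show whether cultures were paired. Figures used matplotlib 3.10.9 in Python 3.11.15.

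The members and gene lists were chosen with earlier results of these data known. Of each pathway list the text names up to 3 called genes with the largest change and the brightest gene not called; exceptions are stated. Marker genes were named outside this rule. Alternatives were median centring, repeated quantile normalization, removal of dim probe sets, a trended robust and an unmoderated fit, array weights, removal of probe sets with the endings s_at, x_at and a_at, the mean of a gene's probe sets, a threshold of 0.01, the replicate block and leaving out each array.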

Additional observations from a re-analysis of the deposited data

How the results depend on the processing

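Flcn (both bright probe sets), Rraga and Rragc kept their direction and their call in every alternative in which they could be computed, with changes of -0.75 to -0.67 for the brightest Flcn probe set (-0.51 for the mean of all 3 Flcn probe sets), -0.59 to -0.51 for the second, -0.57 to -0.47 for Rraga and -0.37 to -0.29 for Rragc, also with the replicate block. The number of member probe sets called lower was 4 to 5 on leaving out each array. It was 2 after removal of probe sets with the endings s_at, x_at and a_at, which removes 1 called Flcn probe set and that of Rragc by construction; the same setting left 5716 of all probe sets called, against 8933, and 27 listed genes called lower. Leaving out each array gave 7691 to 8394 calls in all, 9 to 12 listed genes called higher and 38 to 46 lower, with the low of 9 without starved replicate 3; at the threshold of 0.01 there were also 9 higher. Signs that turned belonged to members that were not called: Mitf 1455214_at to -0.0241 without control replicate 2 (range on leaving out each array -0.0241 to 0.0972), Tfec to -0.0218 without starved replicate 2 and -0.0863 without control replicate 3 (range -0.0863 to 0.2255), and the shift of Tfeb minus Mitf to 0.0188 without starved replicate 3 and 0.0799 without control replicate 2 (range -0.0469 to 0.0799). The cause of these turns was not tested. The shift of Rragc minus Rragd was -0.177 to -0.103 and that of Rraga minus Rragc -0.251 to -0.125. With the replicate block, 4 member probe sets were called lower and 0 higher, and no member changed its call.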
